A study of Mus musculus with 18 samples.

Results

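The genes described here are 6 genes whose transcripts mark the classical monocyte, chosen by symbol and found as 6 of the 20298 genes of the expression table. They are *Ly6c1*, *Ly6c2*, *Vcan*, *F13a1*, *Plac8* and *Fn1*. RNA was sequenced from 18 libraries, 3 in each of 6 groups. WT and DKI monocytes, both of strain C57BL/6 and labelled Ly6C+ CCR2+, were left untreated (day 0) or were cultured for 3 or 6 days with 20 ng/mL GM-CSF. DKI mice carry N-domain mutations knocked into both *Stat5a* and *Stat5b*, in every cell, and their STAT5 forms dimers but no tetramers. The cultured cells are called monocyte-derived cells (MDCs). The monocytes were enriched by negative selection, so that other bone marrow cells could remain, and neither the age nor the sex of the mice for these libraries is given in the sources used here. The series design names bone marrow as the source and the sample labels name liver. The 5 hepatocyte markers *Alb*, *Apoa1*, *Ttr*, *Serpina1a* and *Apoc3* summed to at most 0.0470 RPKM in any library and were at 0 in all 12 MDC libraries. The 8 pan-myeloid genes, among them *Ptprc*, *Csf1r* and *Lyz2*, summed to between 12288 and 18204 RPKM on day 0, to between 3192 and 6432 RPKM in WT MDCs and to between 11856 and 23526 RPKM in DKI MDCs. Such sums follow their most abundant genes. Gene by gene, the median log2 difference of DKI minus WT MDCs was 0.58 on day 3 and 0.67 on day 6. Over all genes tested it was −0.11 and −0.17, and 2 of the 8 genes were lower in DKI on each day. The part of the pan-myeloid difference in the members' levels was not tested.

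Classical monocytes leave the bone marrow for the blood and enter inflamed tissue, where they can become macrophages or dendritic cells and lose the transcripts of the circulating cell. GM-CSF acts through a receptor whose kinase activates STAT5, and STAT5 dimers can pair into tetramers on DNA that carries adjacent sites. *Ly6c1* and *Ly6c2* encode near-identical Ly6C proteins held to the cell surface by a lipid anchor, and antibodies to Ly6C define the classical monocyte in mice. *Plac8* encodes a small cysteine-rich protein of myeloid and other cells. *F13a1* encodes the A subunit of coagulation factor XIII, which cross-links fibrin. *Fn1* encodes fibronectin and *Vcan* the proteoglycan versican, both of the extracellular matrix.

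The question set to the data was whether the 6 genes were lost equally in both genotypes. Day 0 levels of both genotypes overlapped for all 6 genes. With GM-CSF, WT MDCs of day 3 kept between 0.0656% and 5.77% of the day 0 mean RPKM of 5 genes, and *Vcan* kept 22.5% to 27.1%. In DKI MDCs the fall was uneven between libraries. Replicate 1 of day 3 kept 56.8% of *Ly6c2* and 14.3% of *Plac8*, whereas replicate 3 of that day kept 63.2% of *Fn1*. The difference between the genotypes' changes did not pass the test for any of the 6 genes, with wide intervals.

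The Ly6C genes lie on the minus strand of chromosome 15, *Ly6c1* (Entrez gene 17067) at chr15:75044018-75048920 and *Ly6c2* (Entrez gene 100041546) at chr15:75108161-75112066 (build GRCm38.p6, the assembly of mm10). Their coding sequences, taken from the GENCODE transcripts Ly6c1-201 and Ly6c2-201, each hold 396 bases and differ at 9 positions (97.7% identity). The longest stretch in which both are the same is 188 bases. The 2 stretches that hold the differences are shown 5′ to 3′, since within the coding sequence they are the places where a read can tell the genes apart, with the differing bases in capitals. Coding bases 1 to 80 hold 6 of the 9 differences.
Ly6c1: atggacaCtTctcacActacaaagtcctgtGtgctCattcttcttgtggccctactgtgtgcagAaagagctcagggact
Ly6c2: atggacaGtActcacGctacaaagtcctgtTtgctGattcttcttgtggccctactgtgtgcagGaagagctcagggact
Coding bases 241 to 396 hold the other 3.
Ly6c1: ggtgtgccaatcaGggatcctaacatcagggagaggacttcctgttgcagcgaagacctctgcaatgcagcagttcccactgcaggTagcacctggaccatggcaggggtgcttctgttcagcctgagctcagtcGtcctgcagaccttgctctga
Ly6c2: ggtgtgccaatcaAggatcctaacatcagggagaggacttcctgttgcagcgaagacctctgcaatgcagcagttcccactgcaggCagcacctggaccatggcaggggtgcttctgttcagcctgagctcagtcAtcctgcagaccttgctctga
Between these stretches the coding sequences are the same. The untranslated parts of the transcripts were not compared. How the authors counted reads that match both genes is not given in the sources used here, so that the split between *Ly6c1* and *Ly6c2* is uncertain. *Ly6c1* stood at 0.421% to 0.578% of the *Ly6c2* RPKM in the 6 day 0 libraries. In replicate 1 of days 3 and 6 it stood at 1.39% and 1.59% in WT and at 1.51% and 1.54% in DKI MDCs. Replicates 2 and 3 of the MDC groups lay between 0.331% and 0.993%. The replicate 1 libraries of MDCs carry an earlier year in their names, and the part of the year in this share was not tested.

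The other members lie on 3 chromosomes, all on the minus strand. *Vcan* (Entrez gene 13003) is at chr13:89655309-89743027, *F13a1* (Entrez gene 74145) at chr13:36867178-37050244, *Plac8* (Entrez gene 231507) at chr5:100551589-100572253 and *Fn1* (Entrez gene 14268) at chr1:71585473-71653280. Values are RPKM, a read density scaled to the length of the gene and the size of the library, so that levels of different genes can be set side by side. Depth was estimated at 29.5 to 43.2 M reads per library (median 36.4 M). At this depth the *Ly6c1* values rest on few reads, estimated at 368 to 519 in each day 0 library, at 9, 16 and 9 in WT and 758, 18 and 27 in DKI MDCs on day 3, and at 12, 6 and 3 in WT and 120, 4 and 1 in DKI MDCs on day 6. Each of the other 5 genes had at least 22 estimated reads in every library. These precisions cover counting error only.

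RefSeq promoter windows, from 250 bases before to 50 after a start site, were found for 5 of the 6 genes, all but *Fn1*. The 2 windows below are shown because *Ly6c1* and *Ly6c2* moved together across libraries and because both hold the letters GAGGAAGT, bound by PU.1, the transcription factor that myeloid cells depend on. The letters are in capitals, and both are minus-strand sequences of GRCm38.p6.
Ly6c1 chr15:75048614-75048913: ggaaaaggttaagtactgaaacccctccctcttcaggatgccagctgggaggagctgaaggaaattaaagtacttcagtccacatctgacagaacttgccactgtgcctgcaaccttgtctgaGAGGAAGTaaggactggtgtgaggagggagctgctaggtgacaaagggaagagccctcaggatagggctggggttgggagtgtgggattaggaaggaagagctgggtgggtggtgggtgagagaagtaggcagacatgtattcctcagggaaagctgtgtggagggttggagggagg
Ly6c2 chr15:75111922-75112221: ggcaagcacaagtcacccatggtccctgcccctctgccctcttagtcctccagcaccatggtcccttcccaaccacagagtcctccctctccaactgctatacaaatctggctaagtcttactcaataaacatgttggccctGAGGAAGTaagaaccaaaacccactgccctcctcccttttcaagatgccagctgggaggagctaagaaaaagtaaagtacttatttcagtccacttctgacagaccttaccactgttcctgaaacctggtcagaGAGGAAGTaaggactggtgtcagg
The first match of *Ly6c2* lies 108 bases before the start site and its second 26 bases after it, and the single match of *Ly6c1* lies 127 bases before its start site. Windows of a second start site were searched too. That of *Ly6c1* ends inside the same match and so held none whole, that of *Ly6c2* overlapped the window shown and held the same 2 matches, 1 of the 2 *F13a1* windows had 1, and the *Vcan* and *Plac8* windows had none. GAGGAAGT was held on either strand by 3.20% of 32851 promoter windows. The motifs TTCNNNGAA (STAT) and TGANTCA (AP-1), held by 8.30% and 7.81% of windows, had no match in the windows of the 5 genes. These are matches of letters in short windows and say nothing about binding.

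On day 0 the members stood at overlapping levels in both genotypes. *Plac8* was at 1168, 1559 and 1772 RPKM in the WT monocytes and 1287, 1659 and 1696 RPKM in the DKI monocytes. *Ly6c2* was at 953, 1624 and 1762 RPKM in WT and at 1104, 1579 and 1411 RPKM in DKI monocytes. *Fn1* was at 985, 1124 and 1172 RPKM in WT and at 925, 979 and 1076 RPKM in DKI monocytes. These genes ranked 11, 12 and 21 among the 20298 genes by mean RPKM in WT monocytes. *F13a1*, at rank 29, was at 703, 1068 and 1072 RPKM in WT and at 772, 925 and 1054 RPKM in DKI monocytes. The ranges of neighbours in this order overlapped within each genotype, with 1 exception: in DKI monocytes all *Fn1* values were below all *Ly6c2* values.

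The other 2 genes were lower. *Vcan* was at 56.1, 38.6 and 9.22 RPKM in WT and at 66.0, 22.1 and 30.7 RPKM in DKI monocytes. The third WT library was thus 6.08 times below the first, the widest day 0 spread among the members. *Ly6c1* was at 5.49, 6.83 and 9.68 RPKM in WT and at 5.75, 7.01 and 8.16 RPKM in DKI monocytes. WT and DKI ranges overlapped for all 6 genes, where 1.03% of the 9179 genes tested did not overlap. No gene was called different between the genotypes on day 0 (0% called at an adjusted p under 0.05 from limma and a fold above 1.5, with 44 genes at an unadjusted p under 0.05). The log2 differences of the members, DKI minus WT on the scale of log2(RPKM + 1), lay between −0.14 for *Fn1* (95% interval −0.46 to 0.18) and 0.36 for *Vcan* (95% interval −1.38 to 2.10).

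**Figure D1:**
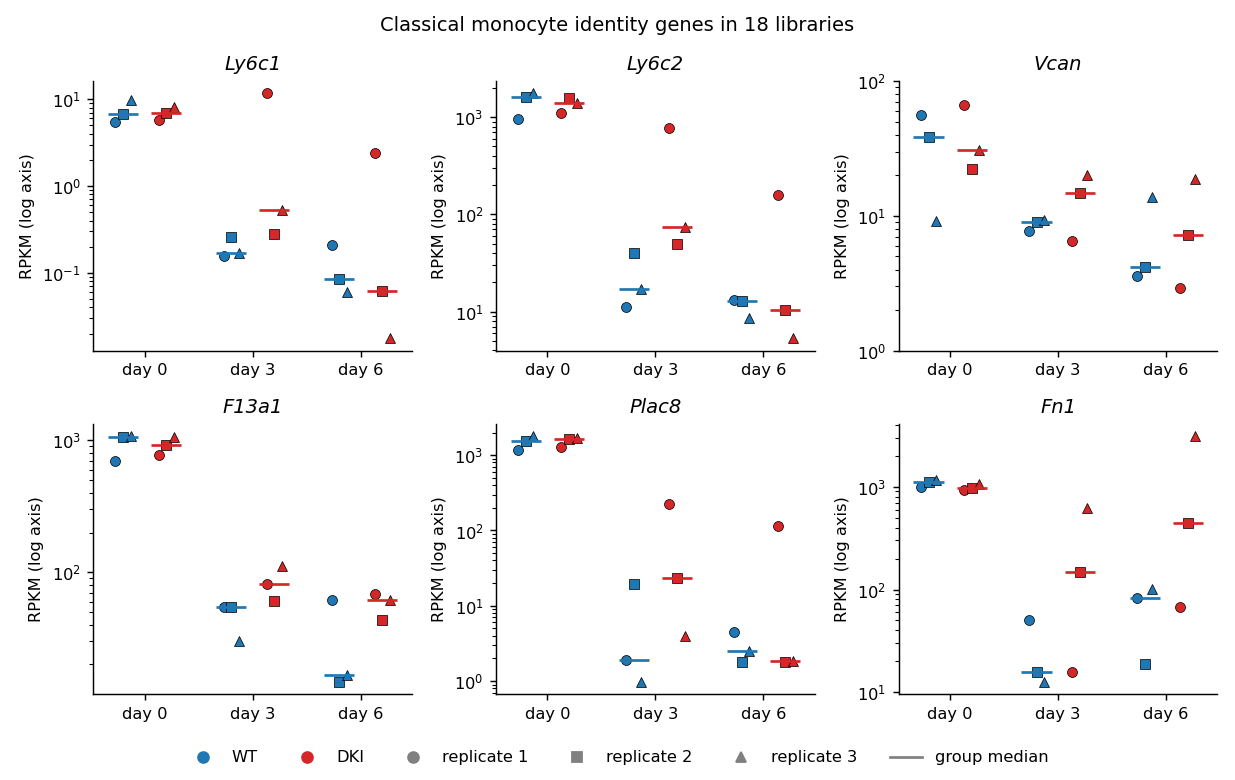
RPKM of the 6 genes (log axis) in 3 WT (blue) and 3 DKI (red) libraries on days 0, 3 and 6, with the replicate number as symbol and the group median as a line. Ly6c1, Ly6c2 and Plac8 stay high in replicate 1 of DKI on days 3 and 6, and Fn1 is highest there in replicates 3 and 2.

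The plot of levels by day shows that WT MDCs lost *Ly6c2* and *Plac8* almost fully by day 3. *Ly6c2* was at 11.2, 39.8 and 17.1 RPKM (day 3) and 13.1, 12.9 and 8.66 RPKM (day 6). This left 0.773% to 2.75% of the day 0 mean on day 3 and 0.599% to 0.908% on day 6. *Plac8* was at 1.91, 19.7 and 0.983 RPKM (day 3) and 4.48, 1.81 and 2.52 RPKM (day 6). Replicate 2 of day 3 stood 10.3 times above the next library, and between 0.0656% and 1.31% of the day 0 mean was left on day 3. *Ly6c1* was at 0.155, 0.258 and 0.170 RPKM (day 3) and 0.208, 0.0848 and 0.0602 RPKM (day 6), below 4% of its day 0 mean in each WT library.

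The coagulation and matrix genes were lower too in WT MDCs. *F13a1* was at 54.6, 54.3 and 30.4 RPKM (day 3) and 61.3, 14.8 and 16.8 RPKM (day 6), which is 1.56% to 6.47% of the day 0 mean. *Fn1* was at 50.9, 15.6 and 12.7 RPKM (day 3) and 83.1, 19.0 and 102 RPKM (day 6), which is 1.16% to 9.29% of the day 0 mean. No day 3 or day 6 value of either gene reached its day 0 range. *Vcan* was at 7.78, 9.04 and 9.39 RPKM (day 3) and 3.61, 4.15 and 13.8 RPKM (day 6). Both groups overlapped the third day 0 library, at 9.22 RPKM. The other 5 genes did not overlap with day 0 on either day, where 32.2% (day 3) and 33.7% (day 6) of the genes tested lay wholly below day 0.

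By limma, 5 of the 6 genes were lower in WT on day 3 than on day 0, where 22.8% of the 9938 genes tested were called lower. The log2 change was −8.23 for *Plac8* (SE 0.81, adjusted p = 0.000479 from limma), −6.07 for *Ly6c2* (SE 0.46), −5.58 for *Fn1* (SE 0.47), −4.34 for *F13a1* (SE 0.29) and −2.77 for *Ly6c1* (SE 0.23), the last understated by the low values of that gene. *Vcan* changed by −1.55 (SE 0.59, adjusted p = 0.0643), and was called at −2.29 (adjusted p = 0.0011) without replicate 3 of WT day 0. On day 6 all 6 genes were called lower than on day 0, where 23.7% of the 10093 genes tested were. *Vcan* passed narrowly there, at −2.01 (SE 0.71, adjusted p = 0.0491), and lost the call without the filter on low values, with median centring, quantile normalization or the replicate block, without the intensity trend, and without replicate 1 or replicate 2 of either day (adjusted p between 0.0517 and 0.145). The median log2 change of the 6 genes was −4.96 on day 3 and −4.73 on day 6, and that of all genes tested −0.05 and −0.07. In these bulk libraries, fewer cells of a type and less RNA per cell cannot be told apart.

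In DKI MDCs the Ly6C genes and *Plac8* differed sharply between libraries. *Ly6c2* was at 775, 49.5 and 73.8 RPKM (day 3) and 158, 10.5 and 5.30 RPKM (day 6). Replicate 1 thus held 56.8% of the DKI day 0 mean on day 3 and 11.6% on day 6, whereas replicates 2 and 3 held 3.63% and 5.41% on day 3. *Plac8* was at 222, 23.1 and 4.01 RPKM (day 3) and 116, 1.80 and 1.83 RPKM (day 6). Replicate 1 was again the highest, with 14.3% and 7.49% of the day 0 mean. *Ly6c1* was at 11.7, 0.278 and 0.526 RPKM (day 3) and 2.42, 0.0622 and 0.0175 RPKM (day 6). On day 3, replicate 1 held more *Ly6c1* than any day 0 library.

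*Fn1*, by contrast, was lowest in replicate 1 of both days. It was at 15.7, 147 and 628 RPKM (day 3) and 68.0, 445 and 3087 RPKM (day 6) in DKI MDCs. Replicate 1 lay within the WT range on both days, and replicate 3 of day 6 was at 311% of the day 0 mean, above every day 0 library. *Vcan* was ordered the same way, at 6.56, 14.7 and 20.0 RPKM (day 3) and 2.92, 7.22 and 18.9 RPKM (day 6). *F13a1* was the most even between DKI libraries, at 81.5, 60.6 and 111 RPKM (day 3) and 67.9, 43.5 and 61.8 RPKM (day 6). All 6 of these *F13a1* values were between 4.74% and 12.2% of the day 0 mean. In DKI, 5 of the 6 genes lay wholly below day 0 on day 3, all but *Ly6c1*, and 5 on day 6, all but *Fn1*, where 34.6% and 37.6% of the genes tested did.

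In DKI, 3 of the 6 genes were lower on day 3 than on day 0, where 21.1% of the 9922 genes tested were called lower. *F13a1* fell by 3.46 on the log2 scale (SE 0.27, adjusted p = 0.000873 from limma), *Plac8* by 5.68 (SE 1.24, adjusted p = 0.0154) and *Ly6c2* by 3.24 (SE 0.97, adjusted p = 0.0415). The values of the others were −3.10 for *Fn1* (SE 1.19, adjusted p = 0.0837), −1.44 for *Ly6c1* (SE 0.84, adjusted p = 0.218) and −1.43 for *Vcan* (SE 0.51, adjusted p = 0.0668). Without replicate 1 of DKI day 3, *Ly6c1* was called (−2.50, adjusted p = 0.0019) and *Ly6c2* changed by −4.46 (adjusted p = 0.000856). Without replicate 3 of DKI day 3, *Fn1* was called (−4.32, adjusted p = 0.0210) and *Ly6c2* was not (−2.77, adjusted p = 0.107). *Ly6c2* also missed the threshold without each DKI day 0 library in turn and without replicate 2 of DKI day 3 (adjusted p between 0.0894 and 0.114), and *Plac8* missed it without replicate 2 of DKI day 0 (−5.62, adjusted p = 0.0526).

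On day 6, 5 of the 6 genes were lower than on day 0 in DKI, where 26% of the 9995 genes tested were called lower. The log2 change was −7.30 for *Plac8* (SE 1.39), −5.90 for *Ly6c2* (SE 1.11), −3.98 for *F13a1* (SE 0.23), −2.35 for *Ly6c1* (SE 0.49) and −2.08 for *Vcan* (SE 0.64), with adjusted p from limma of at most 0.0386. *Vcan* lost the call without the filter on low values, with median centring, quantile normalization or the replicate block, and without each library in turn except replicate 3 of DKI day 6 (adjusted p between 0.0563 and 0.109). *Fn1* changed by −1.12 (SE 1.23, 95% interval −4.05 to 1.81, adjusted p = 0.486), and by 0.24 without replicate 1 of DKI day 6. The median log2 change of all genes tested was −0.16 in DKI on day 3 and −0.23 on day 6. Centring each library on its median gave 1622 lower and 1743 higher genes on day 3 in place of 2097 and 1297, and 1741 and 1987 on day 6 in place of 2600 and 1407. The call of *Ly6c2* on day 3 was lost with this centring (adjusted p = 0.0601) and without the filter on low values (adjusted p = 0.0825).

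**Figure D2:**
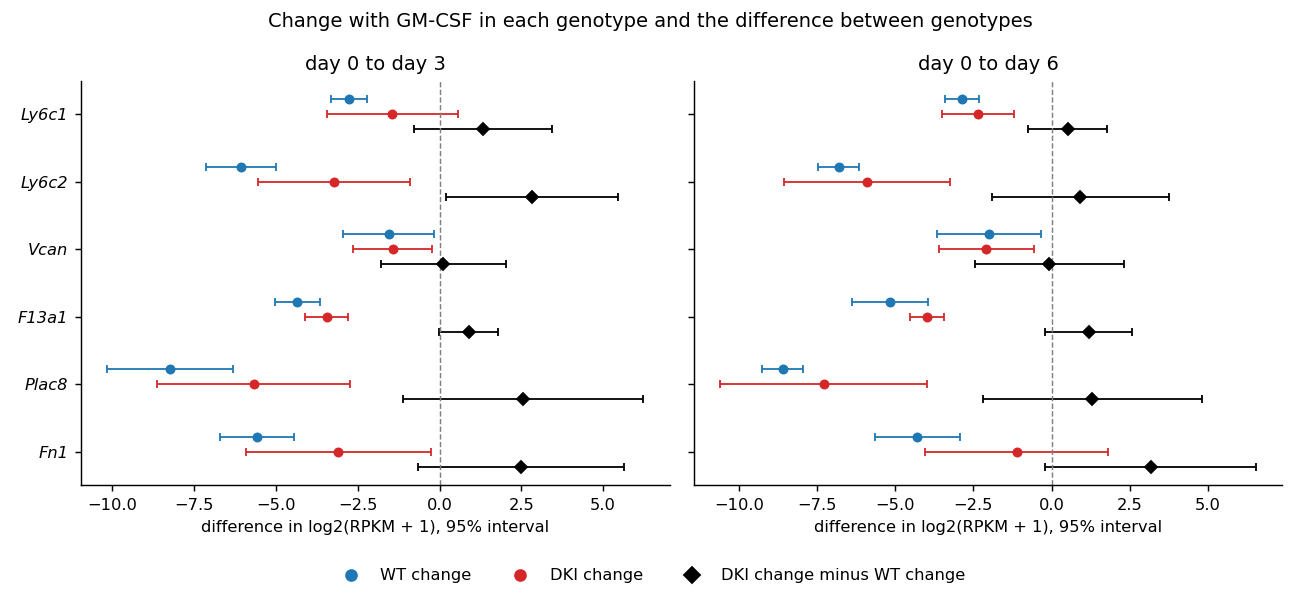
Change in log2(RPKM + 1) from day 0 to day 3 (left) and to day 6 (right) in WT (blue) and DKI (red), with the DKI change minus the WT change (black diamonds), as limma estimates with 95% intervals. The difference lies above 0 for 6 of 6 genes on day 3 and for 5 of 6 on day 6, and its interval excludes 0 for Ly6c2 on day 3 alone before adjustment.

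The difference between the genotypes' changes was tested as an interaction in the 12 libraries of day 0 and the later day. On day 3, 0 of the 6 genes were called, where 2.91% of the 10212 genes tested were. As drawn in the plot of changes and their differences, the DKI change minus the WT change was 2.83 on the log2 scale for *Ly6c2* (SE 1.19, 95% interval 0.19 to 5.47, adjusted p = 0.277 from limma). The difference was 2.55 for *Plac8* (95% interval −1.12 to 6.22), 2.49 for *Fn1* (95% interval −0.66 to 5.63), 1.33 for *Ly6c1* (95% interval −0.79 to 3.45), 0.89 for *F13a1* (95% interval −0.02 to 1.80) and 0.12 for *Vcan* (95% interval −1.79 to 2.03). Their adjusted p lay between 0.33 and 0.967. The median of the 6 was 1.91, beside −0.11 over all genes tested. The upper ends of the 6 intervals lay between 1.80 and 6.22, so that neither an equal nor an unequal loss was shown.

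On day 6, again 0 of the 6 genes were called, where 2.8% of the 10353 genes tested were. The log2 difference was 3.17 for *Fn1* (SE 1.52, 95% interval −0.19 to 6.54, adjusted p = 0.319 from limma) and 1.19 for *F13a1* (SE 0.63, 95% interval −0.20 to 2.57, adjusted p = 0.372). It was 1.31 for *Plac8* (SE 1.59), 0.92 for *Ly6c2* (SE 1.28), 0.52 for *Ly6c1* (SE 0.57) and −0.07 for *Vcan* (SE 1.08), and turned positive for *Vcan* at 0.07 with median centring and 0.10 with quantile normalization. Libraries of WT and DKI that share a number also shared deviations from their group means, on each day. With the replicate number as a block, the count over all genes rose from 297 to 1040 (day 3) and from 290 to 1401 (day 6), with still 0 of the 6 genes called.

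Which libraries carried the difference varied by gene. Without replicate 1 of DKI day 3, the day 3 difference of *Ly6c2* was 1.61 (SE 0.62), that of *Plac8* 1.10 (SE 1.22) and that of *Ly6c1* 0.27 (SE 0.30), and none was called. The difference of *Fn1* was then 3.88 (SE 0.84, adjusted p = 0.0424 from limma), and it was 4.48 (SE 0.69, adjusted p = 0.0122) without replicate 1 of day 3 in both genotypes. Without replicate 1 of DKI day 6, the day 6 difference turned to −0.49 for *Ly6c2*, −0.48 for *Plac8* and −0.06 for *Ly6c1*, while that of *Fn1* was 4.54 (SE 1.07, adjusted p = 0.063). That of *F13a1* was called without replicate 1 of WT day 6 (1.82, adjusted p = 0.0302). The 4 replicate 1 libraries of days 3 and 6 carry an earlier year in their names than all other libraries. Of the WT libraries of that year, that of day 3 was lowest in its group for *Ly6c2* and *Ly6c1* and highest for *Fn1* and *F13a1*, and that of day 6 was highest in its group for *Ly6c1*, *Ly6c2*, *Plac8* and *F13a1*. There *Ly6c2* was 1.02 times, *Plac8* 1.78 times, *Ly6c1* 2.45 times and *F13a1* 3.66 times the next library. The part of the year in the members' levels was not tested.

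Set side by side on the same day, DKI MDCs stood above WT MDCs for part of the genes. On day 3 the DKI libraries were all above the WT libraries for *Ly6c1*, *Ly6c2* and *F13a1*. These were 3 of the 6 genes, beside 13.4% of the 9740 genes tested. *Ly6c1* passed the filter on low values through DKI alone, at a mean of 4.17 RPKM beside 0.194 RPKM in WT. Its lowest DKI library held 18 estimated reads and its highest WT library 16, so that *Ly6c1* carries no weight in this count. By limma 0 of the 6 genes were called, where 7.42% of the genes were, and the log2 difference was 2.78 for *Ly6c2* (95% interval 0.24 to 5.32, adjusted p = 0.16) and 0.86 for *F13a1* (95% interval 0.09 to 1.62, adjusted p = 0.154). It was 2.60 for *Plac8*, 2.35 for *Fn1*, 1.29 for *Ly6c1* and 0.48 for *Vcan*. Without replicate 1 of DKI day 3, *Vcan* was called (0.90, adjusted p = 0.0411). On day 6 the groups overlapped for all 6 genes, where 37.2% of the 9842 genes tested did not overlap.

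Of the 5 genes that passed the filter on low values on day 6, 0 were called, where 7.54% of the 9842 genes tested were, and *Ly6c1* did not pass it. The median log2 difference of all genes was −0.11 on day 3 and −0.17 on day 6, and median centring gave 285 lower and 323 higher calls on day 6 in place of 474 and 268. *Fn1* differed by 3.04 (95% interval −0.28 to 6.35) and *F13a1* by 1.15 (95% interval −0.13 to 2.43), and *F13a1* was called without replicate 1 of WT day 6 (1.78, adjusted p = 0.0487 from limma). *Plac8* differed by 1.37, *Ly6c2* by 0.87 and *Vcan* by 0.29. Without replicate 1 of DKI day 6 the values were −0.43 for *Plac8* and −0.54 for *Ly6c2*.

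**Figure D3:**
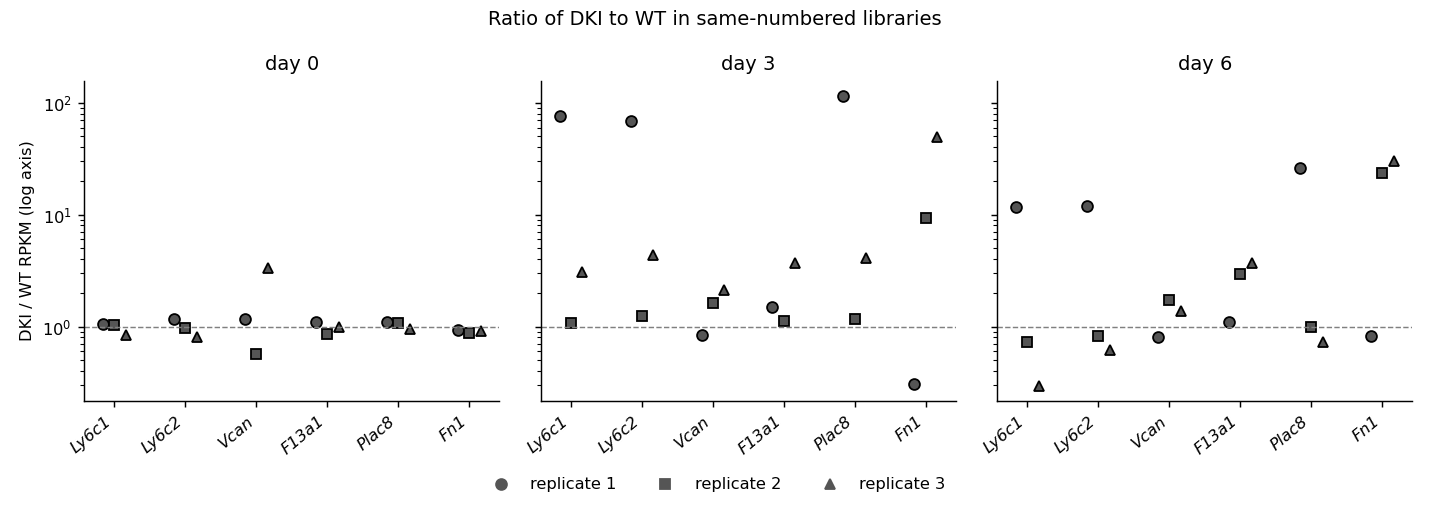
Ratio of DKI to WT RPKM (log axis) in libraries of the same number, for each gene on days 0, 3 and 6; the dashed line marks equal levels. On day 3 the replicate 1 ratio is 75.5 for Ly6c1, 69.3 for Ly6c2 and 116 for Plac8 but 0.309 for Fn1, whose replicate 3 ratio is 49.5.

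The ratios of same-numbered libraries differed in order between *Ly6c2* and *Fn1*. For *Ly6c2* the DKI to WT ratio was 69.3, 1.24 and 4.31 in replicates 1, 2 and 3 on day 3 and 12.02, 0.817 and 0.612 on day 6. For *Fn1* it was 0.309, 9.42 and 49.5 on day 3 and 0.818, 23.5 and 30.4 on day 6. *F13a1* was higher in DKI in all 6 pairs of days 3 and 6, by 1.11 to 3.69 times. No member had all 6 of its pairs below 1, and *Plac8* in replicate 2 of day 6 was at 0.999.

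Between days 3 and 6 no member was called in either genotype, and no gene was (0% of 9613 genes in WT and 0% of 9540 in DKI by limma, with 722 and 93 genes at an unadjusted p under 0.05). *Fn1* was higher on day 6 than on day 3 in each same-numbered pair of both genotypes. In WT the log2 difference of *Fn1* was 1.29 (95% interval −0.52 to 3.10), and in DKI 1.98 (95% interval −2.27 to 6.22). The other 5 genes were lower on day 6 in all 3 DKI pairs, with log2 differences between −2.66 for *Ly6c2* (95% interval −6.31 to 0.98) and −0.52 for *F13a1* (95% interval −1.22 to 0.18).

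A wider list of 13 other classical monocyte genes was set beside the members. In WT, 10 of the 13 were called lower on day 3 and 10 on day 6, beside 22.8% and 23.7% of all genes tested. The largest day 3 changes were −4.84 for *Hp*, the hemoglobin-binding haptoglobin, −4.66 for *Chil3*, a secreted chitinase-like protein, −4.19 for *Cd177*, a surface protein known from neutrophils, and −4.14 for *Ms4a4c*, which encodes a membrane-spanning protein. In DKI, 6 of the 13 were called lower on day 3 and 5 on day 6, beside 21.1% and 26% of all genes tested. The largest called changes on day 3 in DKI were −3.62 for *Chil3*, −3.25 for *Hp*, −2.76 for *Cd177* and −2.65 for *Cd14*, the lipopolysaccharide co-receptor. The median log2 change of the 13 on day 3 was −3.64 in WT and −1.53 in DKI.

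**Figure D4:**
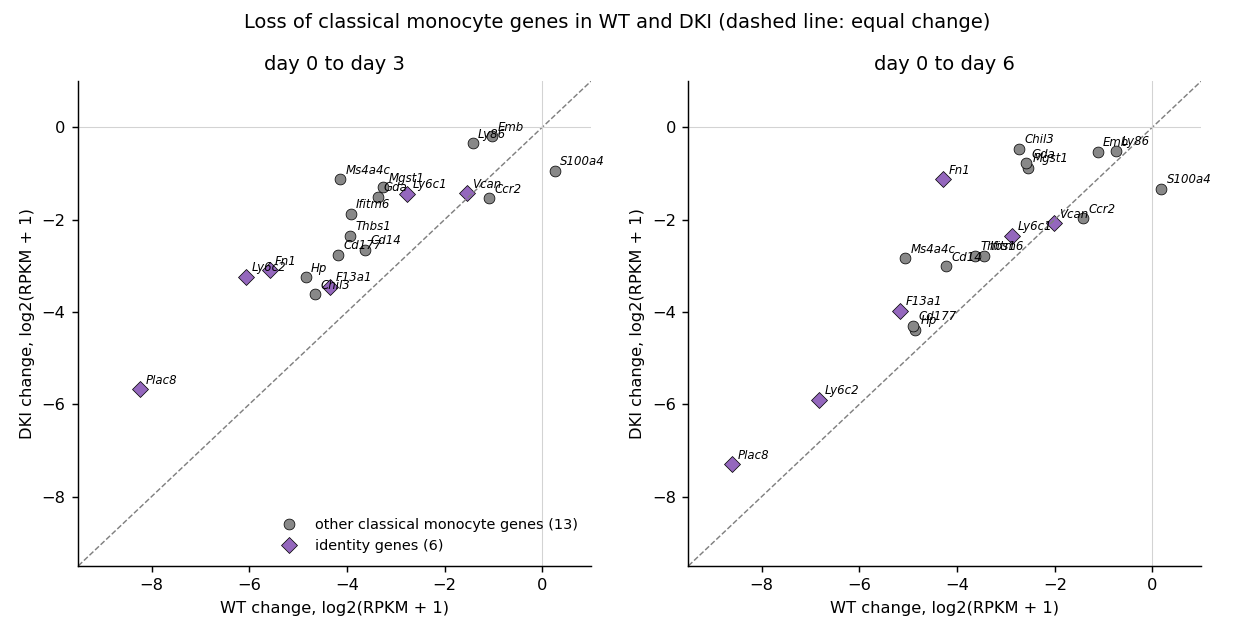
Change in log2(RPKM + 1) from day 0 in WT (x axis) against DKI (y axis) for the 6 genes (diamonds) and 13 other classical monocyte genes (circles), on day 3 (left) and day 6 (right); genes above the dashed line fell less in DKI. On day 3, every point but Ccr2 and S100a4 lies above the line.

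The plot of both genotypes' changes shows most of the wider list on the side of the smaller fall in DKI. On day 3, the difference between the changes was above 0 for 11 of the 13 genes, all but *Ccr2* (−0.45) and *S100a4* (−1.20). On either day 0 of the 13 passed the test of the difference, where 2.91% (day 3) and 2.8% (day 6) of all genes tested did. The largest day 3 differences were *Ms4a4c* at 3.01 (SE 1.53, adjusted p = 0.381 from limma), *Ifitm6* at 2.06 (SE 0.81), *Mgst1* at 1.95 (SE 0.62) and *Gda* at 1.86 (SE 0.64). The median over the 13 genes was 1.43 on day 3 and 0.66 on day 6, beside −0.11 and −0.17 over all genes tested. *Chil3* was at 118, 235 and 7264 RPKM in DKI MDCs on day 6, highest in the library with the highest *Fn1*.

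Nonclassical monocytes, which patrol vessels and have little Ly6C, were checked by 8 genes. Their sum was 331 to 1024 RPKM in WT and 366 to 921 RPKM in DKI monocytes on day 0. It was 225.1, 137 and 159 RPKM in WT and 62.0, 72.1 and 82.1 RPKM in DKI MDCs on day 3, and 288, 173 and 155 RPKM in WT and 74.5, 74.5 and 45.2 RPKM in DKI MDCs on day 6. The sums of both genotypes overlapped on day 0 and did not in MDCs. Between the genotypes, 3 of the 5 genes tested were called lower in DKI on day 3 and 1 of 6 on day 6. Over all genes tested, 7.42% and 7.54% were called in either direction. *Adgre4*, named after its values were seen, ran the other way at 2.27 and 1.49 on the log2 scale and was not called. The genes did not all move alike, since *Cd300e* and *Eno3*, named after their values were seen, were called higher in WT on day 3 than on day 0 (3.04 and 2.21 on the log2 scale). The part of these genes in the members' levels was not tested.

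Of 8 genes that lie beside the Ly6C genes in the Ly6 cluster, *Ly6a*, *Ly6i* and *Ly6e* also stood high in replicate 1 of DKI. *Ly6a*, which encodes the surface antigen Sca-1, was at 2358, 429 and 153 RPKM on day 3 in DKI and at 67.7, 26.4 and 126 RPKM in WT MDCs. *Ly6i* was at 351, 59.7 and 29.0 RPKM in DKI and at 15.8, 6.27 and 7.05 RPKM in WT MDCs. On day 0, *Ly6a* was between 1.70 and 12.4 RPKM and *Ly6i* between 1.96 and 4.14 RPKM in the 6 libraries, low against the MDC values of replicate 1 of DKI. *Ly6e*, another neighbour, was high before culture, at 417 to 799 RPKM on day 0, and stood at 1848, 567 and 387 RPKM in DKI and 588, 238 and 416 RPKM in WT MDCs on day 3. Of the 8 neighbours 4 were tested on day 3, those above and *Ly6g*. Of these, 0 were called between the genotypes, where 7.42% of the 9740 genes tested were. The other 4 were under 1 RPKM in all DKI libraries of days 3 and 6.

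A list of 12 interferon-stimulated genes, among them *Isg15*, *Ifit1* and *Mx1*, was added after the values were seen. Its sum was 5059, 634 and 172 RPKM in DKI and 149, 61.4 and 114.6 RPKM in WT MDCs on day 3, and 2254, 246 and 312 RPKM in DKI and 121, 78.1 and 103 RPKM in WT MDCs on day 6. The day 0 libraries lay between 99.3 and 227.4 RPKM. All 12 genes were highest in replicate 1 of DKI day 3, the library with the highest *Ly6c1*, *Ly6c2* and *Plac8* among the 12 MDC libraries. The part of these genes in the members' levels was not tested.

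**Figure D5:**
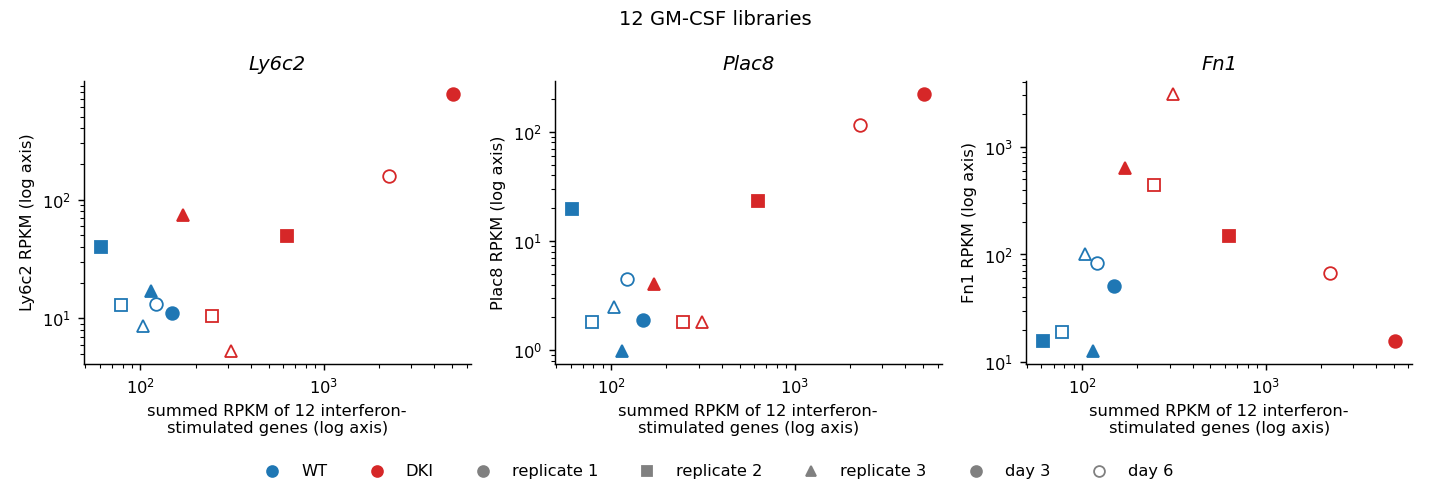
RPKM of Ly6c2, Plac8 and Fn1 (y axes, log) against the summed RPKM of 12 interferon-stimulated genes (x axis, log) in the 12 GM-CSF libraries, by genotype (color), day (filled or open) and replicate (symbol). The 2 DKI replicate 1 libraries, with sums of 5059 and 2254 RPKM, have the highest Ly6c2 and Plac8, and Fn1 at 15.7 and 68.0 RPKM.

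The plot against interferon-stimulated genes sets replicate 1 of DKI apart on both axes for *Ly6c2* and *Plac8*. Markers of other bone marrow cells moved with it in part. The 7 neutrophil genes summed to 463, 462 and 48.0 RPKM in DKI and to 34.7, 516 and 17.7 RPKM in WT MDCs on day 3, and to 685, 20.8 and 22.2 RPKM in DKI and 178, 20.7 and 19.6 RPKM in WT MDCs on day 6. Their day 0 sums were 143 to 863 RPKM. The 6 genes of granulocyte-monocyte progenitors, among them *Mpo* and *Elane*, summed to between 752 and 1492 RPKM in the 6 day 0 libraries. In WT, 4 of the 6 were called lower and 1 higher on day 3 and again on day 6, beside 22.8% and 23.7% of all genes called lower. They summed to 98.1, 117 and 26.0 RPKM in DKI and to 22.7, 69.4 and 18.3 RPKM in WT MDCs on day 3, and to 85.6, 8.58 and 17.0 RPKM in DKI and 28.6, 26.8 and 23.2 RPKM in WT MDCs on day 6. Replicate 2 of WT day 3, with the highest neutrophil sum of that day, was also the WT library with the highest *Plac8* and *Ly6c2*.

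Markers of further cell types varied by list. The 5 stromal genes, which bear on *Fn1* and *Vcan* since fibroblasts make both proteins, summed to 27.8, 54.6 and 23.0 RPKM in WT and 37.9, 132 and 41.9 RPKM in DKI monocytes on day 0. They summed to 0.335 to 1.06 RPKM in the WT MDC libraries, and in DKI MDCs to 9.96, 0.944 and 1.84 RPKM (day 3) and 32.9, 1.25 and 0.796 RPKM (day 6), so that they were lower in MDCs than on day 0 together with *Fn1* and *Vcan* in most libraries. Among DKI MDCs they were highest in replicate 1, where *Fn1* was lowest, and at most 1.84 RPKM in replicates 2 and 3, where *Fn1* was at 147 to 3087 RPKM. The 4 endothelial genes summed to 24.1, 2.84 and 0.473 RPKM in DKI MDCs on day 3. B cell genes summed to at most 7.10 RPKM and T and NK cell genes to at most 1.53 RPKM in any MDC library. In each of the groups DKI day 3, DKI day 6 and WT day 6, 1 gene of the B cell list was at 0 in all libraries. Megakaryocyte and platelet genes, which bear on *F13a1* since platelets hold factor XIII, summed to 39.0 to 211 RPKM on day 0. On day 3 they summed to 26.4, 120 and 33.0 RPKM in DKI and 4.54, 63.2 and 65.4 RPKM in WT MDCs. On day 6 the sums were 27.9, 16.8 and 42.7 RPKM in DKI and 5.53, 42.9 and 13.8 RPKM in WT MDCs. Basophil, mast cell and eosinophil genes summed to 170 to 505 RPKM on day 0 and to 1.86 to 122 RPKM in MDCs, and erythroid genes to at most 14.9 and 0.113 RPKM. The plasmacytoid dendritic cell sum was 34.5 RPKM in replicate 3 of DKI day 6 and at most 2.28 RPKM in the other libraries. The part of these cells in the members' levels was not tested.

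The genes most like each member were ranked over the 18 libraries, over which all pairs of members correlated positively. By Pearson r of log2(RPKM + 1), among 10417 genes, the genes most like *Ly6c2* were *Plac8* (0.974), *Ly6c1* (0.966) and *Ms4a4b* (0.965), and those most like *Ly6c1* were *Prpf4* (0.973), *Ly6c2* and *Ms4a4b* (0.953). Those most like *Plac8* were *Cldn15* (0.980) and the granule protein genes *Mpo* (0.980) and *Elane* (0.979). Those most like *F13a1* were *Il6ra* (0.977), *Rhno1* (0.976) and *Zfp384* (0.970), those most like *Fn1* were *P2ry1* (0.925), *Proz* (0.877) and *Gypc* (0.873), and those most like *Vcan* were *Prrc1* (0.910), *4932438A13Rik* (0.908) and *Cog3* (0.878). The step from day 0 to MDCs is shared by all these values. Over the 12 MDC libraries alone, r was 0.912 between *Ly6c1* and *Ly6c2* and 0.904 between *Ly6c2* and *Plac8*, and −0.35 between *Ly6c2* and *Fn1*. There *F13a1* had an r of 0.428 to 0.536 to *Ly6c1*, *Ly6c2* and *Plac8* and of 0.332 to *Fn1*. The points share libraries and are given as a description.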

How the data were processed

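RNA-seq of 18 libraries was used, in 6 groups of 3 by genotype and day, with groups and replicate numbers from the sample labels. Per the study's methods and the submitters' processing notes, single-end reads from poly(A) RNA libraries were aligned to mm10 with Subread and counted on RefSeq genes with featureCounts. The authors deposited RPKM values in 1 column per library. Versions, strand settings and how multi-mapping reads were treated are not given in the sources used here. All 18 columns were used. Of 20298 gene identifiers, 20082 were found in the RefSeq annotation (GRCm38.p6) and 216 were not.

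Values were compared as log2(RPKM + 1) with limma 3.58.1 (R 4.3.3, intensity trend) on the libraries of the groups compared, after genes whose group means all lay at or under 2 RPKM were dropped. Genes were called at a Benjamini-Hochberg adjusted p under 0.05 over all genes tested and a fold above 1.5. Since RPKM are not counts, limma took the place of the authors' edgeR. This scale understates the fold of genes with low RPKM. The steps were tested on simulated data. The alternatives were a pseudocount of 0.1, no filter, median centring, quantile normalization, a fit of all 18 libraries, no intensity trend, the replicate number as a block, leaving out each library and leaving out the 4 libraries named for the earlier year.

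Depth was estimated from 1177 single-exon receptor genes. In each library the most common low nonzero value after scaling by gene length, shared by 4 to 13 genes, was taken as 1 read. Estimated reads of each member came from the smallest gene length that gave whole numbers, to within 0.05 reads, in all 18 libraries. Nothing states that same-numbered libraries came from 1 culture pair, but same-numbered WT and DKI libraries correlated in their deviations from the group means by at least 0.687 on day 0, 0.156 on day 3 and 0.336 on day 6. The study names 3 independent experiments. Whether the libraries of a group came from separate animals is not stated, so that p-values measure the spread between these libraries.

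All 6 genes were named, with up to 4 genes of the wider list per comparison for their largest values and the 3 genes most alike to each member. *Ccr2* and *S100a4* of the wider list were named besides, as the exceptions in direction. The members and all gene lists were chosen with earlier results of these data known, and the wider list was analysed without 1 gene that is not reported here. Sequences were read from RefSeq and GENCODE M21 and compared with biopython 1.88. Figures were made with matplotlib 3.10.9.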

Additional observations from a re-analysis of the deposited data

How the results depend on the processing

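Up to 8 alternatives were run per comparison beside leaving out each library. For the 5 genes Ly6c1, Ly6c2, F13a1, Plac8 and Fn1, the fall in WT on days 3 and 6 kept its call in all of them. In DKI the fall of F13a1 did so on both days, and that of Ly6c1, Ly6c2 and Plac8 on day 6. Of the values of single members, 478 kept direction and call, 10 turned direction, 2 gained and 14 lost a call under the alternatives other than leaving out 1 library, and 403, 29, 7 and 15 did when 1 library was left out. For changes from day 0 within a genotype, leaving out the libraries of the earlier year was the same fit as leaving out its single such library. The cause was not tested.

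Counts over all genes moved by more than 1.5 times under some alternatives. The genotype difference gave 6 genes on day 0, 1359 on day 3 and 1573 on day 6 in a fit of all 18 libraries, which also gave 16 genes for WT between days 3 and 6. Without the filter it gave 358 and 187 genes on days 3 and 6, and without the libraries of the earlier year 369 and 38, where the difference of the changes to day 3 called 1 member, Fn1. Leaving out 1 library gave 197 to 715 genes and 0 to 1 members for the genotype difference on day 3, and 90 to 984 genes and 0 to 1 members on day 6. It gave 0 to 1 genes for WT between days 3 and 6, 1976 to 3412 genes and 1 to 4 members for DKI from day 0 to 3, and 2663 to 3625 genes for DKI from day 0 to 6. The difference of the changes gave 125 to 336 genes and 0 to 1 members (day 3) and 117 to 664 genes and 0 to 1 members (day 6).

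With the replicate block, the difference of the changes called 1040 genes (day 3) and 1401 genes (day 6) and 0 members. Within a genotype, day 0 and later libraries share only a number (correlations −0.20 to 0.18). There the block took the calls of Ly6c2 in DKI on day 3 (adjusted p = 0.0623 from limma) and of Vcan on day 6 in WT (0.104) and DKI (0.0692), and it changed no other call of a member.

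Directions turned in the following cases, none of them a called value. The day 0 genotype difference of Plac8 was −0.0049 with quantile normalization. Without the libraries of the earlier year, the day 6 genotype difference was −0.44 for Ly6c2 and −0.16 for Plac8, the DKI change of Fn1 to day 6 was 0.24, and the difference of the changes to day 6 was −0.00054 for Ly6c1, −0.39 for Ly6c2, 0.19 for Vcan and −0.21 for Plac8. For Vcan the latter was 0.074 with median centring and 0.10 with quantile normalization. With 1 library left out, the day 0 genotype difference ran from −0.21 to 0.15 for Ly6c1, −0.33 to 0.12 for Ly6c2, −0.38 to 0.86 for Vcan, −0.23 to 0.086 for F13a1 and −0.11 to 0.19 for Plac8. The day 6 genotype difference ran from −0.54 to 1.79 for Ly6c2, −0.31 to 0.86 for Vcan and −0.43 to 2.27 for Plac8. The WT change of Plac8 from day 3 to day 6 ran from −1.04 to 0.65, and the DKI change of Fn1 from day 0 to day 6 from −2.50 to 0.24. The difference of the changes ran from −0.38 to 0.86 for Vcan to day 3, and to day 6 from −0.058 to 0.82 for Ly6c1, −0.49 to 1.84 for Ly6c2, −0.67 to 0.67 for Vcan and −0.48 to 2.21 for Plac8. Ly6c1 in MDCs, at 1 to 27 estimated reads in all but 2 libraries, is the value most limited by depth.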
